A study of Mus musculus with 18 samples.

Results

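Small RNA libraries of Hopx-low CD4+ T cells were set against the midpoint between Hopx-high and naive cells, to ask which small RNAs do not follow a graded order from naive over Hopx-low to Hopx-high. The 9 small RNA libraries of the series, of 18 libraries in all, were used, and all 510 small RNAs that passed a filter on low levels were tested, of 2220 features in the table. No feature was chosen for testing by a difference between groups. The cells came from lymph nodes and spleen of C57BL6 mice. All 3 groups carry the same label for treatment: chimeric antibodies that bring an antigen to dendritic cells had been given into the peritoneum 5 days before the cells were taken. Hopx-low cells (3 libraries) and Hopx-high cells (3 libraries) are antigen-specific CD4+ T cells that dendritic cells had activated and that differ in their level of Hopx, a small homeodomain protein that lacks DNA binding of its own. Naive CD4+ T cells (3 libraries) are the group that the series' design sets them against. Nothing in the labels ties libraries to separate animals or tells how the Hopx level was read. The p-values rest on the spread between the 3 libraries within each group, pooled over the 3 groups and drawn by limma towards that of other features. This spread between libraries may therefore be technical.

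MicroRNAs are short RNAs that Drosha and Dicer cut from a hairpin and that are loaded into an Argonaute protein. Pairing of the seed, bases 2 to 8 of the mature strand, with sites in messenger RNAs lowers the output of those messengers, and microRNAs with the same seed form a family with overlapping targets. In T cells, miR-155 and miR-146a are known as induced by activation, miR-150 and miR-342 as abundant in resting lymphocytes, and the let-7 family as lowered on activation.

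The mature strands of the microRNAs that the results turn on are given below, from RefSeq on GRCm38.p6, with the seed in capitals, because shared seeds group several of them. For each hairpin the arm usually taken as the guide is shown; the deposited values cover the hairpin as a whole and do not tell the arms apart.
let-7i-5p: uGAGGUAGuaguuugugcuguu
miR-98-5p: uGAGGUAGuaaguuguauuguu
let-7e-5p: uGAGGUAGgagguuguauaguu
miR-29b-3p: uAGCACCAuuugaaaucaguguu
miR-32-5p: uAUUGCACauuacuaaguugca
miR-92a-3p: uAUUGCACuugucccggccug
miR-212-3p: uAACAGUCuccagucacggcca
miR-132-3p: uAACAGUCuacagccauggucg
miR-99b-5p: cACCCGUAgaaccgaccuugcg
miR-125a-5p: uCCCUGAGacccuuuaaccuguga
miR-155-5p: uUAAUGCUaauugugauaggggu
miR-146a-5p: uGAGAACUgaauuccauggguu
miR-31-5p: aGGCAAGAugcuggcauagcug

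Levels are given as bases per megabase: the bases covering a hairpin, divided by the megabases covering all features of that library. That the deposited values count covered bases was inferred from the values themselves. Differences were taken between values of log2(level + 1), a scale that shrinks differences of scarce small RNAs, and are followed by their standard error. Small RNA libraries held 23.1 to 36.2 megabases in Hopx-low, 17.8 to 32.8 in Hopx-high and 11.6 to 20.2 in naive cells, so Hopx-low libraries were the deepest as a group. A level of 1 stood for roughly 0.527 to 1.72 reads. In naive replicate 2, the shallowest library, 87.4% of bases lay on features named as microRNAs, and in the other 8 libraries 94.4% to 98.99%. Mir3535, Mir5121 and Snord43 together took 29.5% of its bases, against 4.95% to 17.5% in the others. Without naive replicate 2, all 11 calls described here were kept and 15 were made in all. Correlations of log2 levels were 0.957 to 0.985 within groups and 0.915 to 0.979 between groups. In the total RNA libraries of the same groups, Hopx stood at 6.995 ± 0.948 in Hopx-low, 27.8 ± 5.77 in Hopx-high and 0.971 ± 0.894 in naive cells (SD, n = 3 each), in the order of the labels.

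Most small RNAs of Hopx-low cells lay between the other groups or could not be told from 1 of them. The mean log2 level in Hopx-low cells was between those of Hopx-high and naive cells for 241 features (47.3%), the lowest of the 3 for 174 (34.1%) and the highest for 95 (18.6%). The balance of lowest against highest depended on scaling: with upper-quartile scaling the numbers were 130 and 131, and with quantile normalization 133 and 137. The median difference from the midpoint over all features was -0.09 on the log2 scale, 0.01 with upper-quartile scaling and 0.02 with quantile normalization, a shift of 0.107 for the last of these. Limma called 11 features against the midpoint at an adjusted p below 0.05 (2.16%), 5 higher (0.98%) and 6 lower (1.18%). Among them Hopx-low cells had the lowest mean for 6 (Mir98, Mirlet7i, Mir29b-1, Mir29b-2, Mir32 and Mir143), the highest for 2 (Mir212 and Mir99b), and an intermediate one for 3 (Mir155, Mir146 and Mir31), so a call against the midpoint is not in itself a peak or a trough. All 11 also passed limma's test against naive cells, where 70 features (13.7%) did, and 4 of them, Mir98, Mirlet7i, Mir146 and Mir31, passed against Hopx-high cells, where 64 (12.5%) did.

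A stricter test asked that Hopx-low cells differ from both other groups in the same direction, taking the larger of the 2 limma p-values. It called 0 of 510 features after adjustment (0%), with the lowest adjusted p at 0.80 for Mirlet7i and Mir98. At an unadjusted p below 0.05 it held 17 features (3.33%), 13 troughs (2.55%) and 4 peaks (0.784%). The troughs were Mirlet7i, Mir98, Mir143, Mir15a, Mir326, Mir3084-2, Mir219c, Mir362 and 5 hairpins of the Sfmbt2 cluster, and the peaks were Mir99b, Mir125a, Mir342 and Mir92-1. Against that, Mirlet7i and Mir98 each passed the adjusted test against Hopx-high and the adjusted test against naive cells, and they were the only features of the 510 (0.392%) that did so on the same side; 15 features passed both in a stepwise order. In some of 20 alternatives others joined them, among them Mir143 and Mir669m-1 in 4 each, Mir99b in 3 and Mir92-1 in 2. All 3 Hopx-low libraries lay below the other 6 for 15 features (2.94%) and above them for 7 (1.37%).

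**Figure D1:**
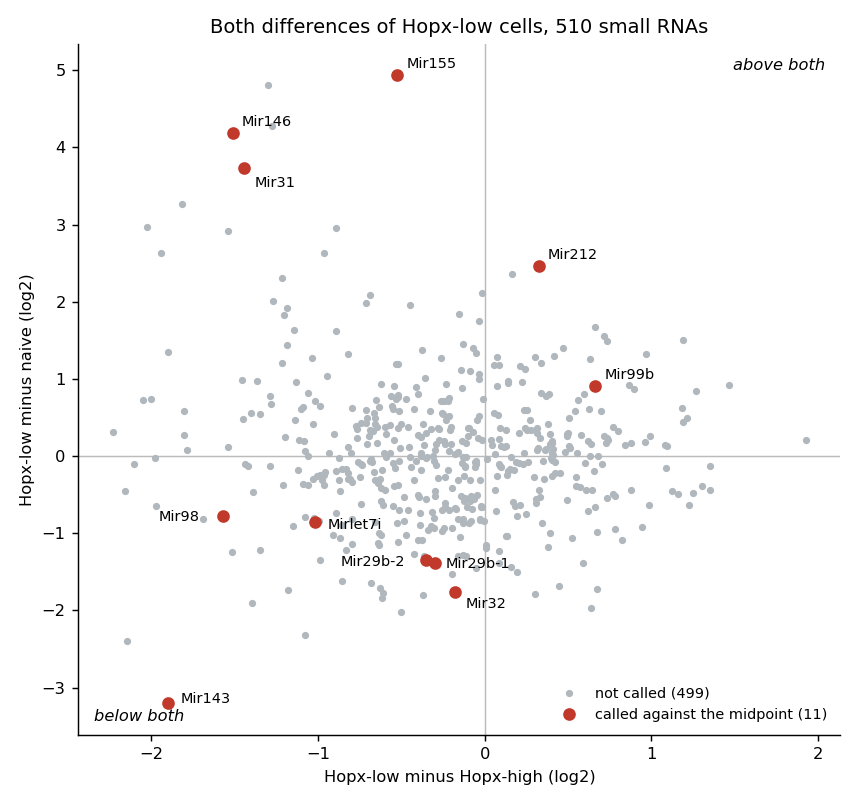
Each point is 1 of 510 small RNAs, with the Hopx-low minus Hopx-high difference on the horizontal axis and the Hopx-low minus naive difference on the vertical axis, both in log2 units; red points are the 11 called against the midpoint. Points in the upper right are above both groups and those in the lower left below both: Mir212 and Mir99b lie in the first area, 6 called microRNAs lie in the other, and Mir155, Mir146 and Mir31 lie above naive and below Hopx-high cells.

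Mir98 and Mirlet7i, both of the let-7 family, were below Hopx-high and below naive cells. The family, which holds back growth programmes in many tissues, has 12 tested hairpins in the list used here, miR-98 included. Mir98 lies on chromosome X, with its mature strand at chrX:151913229-151913250, plus strand, and Mirlet7i on chromosome 10 at chr10:122985698-122985719, minus strand. Mir98 stood at 299.7, 373 and 243 bases per megabase in Hopx-low replicates 1 to 3, at 915, 981 and 793 in Hopx-high and at 409, 641 and 519.6 in naive libraries. Every Hopx-low library lay below every other library, and the Hopx-high libraries lay above all naive ones. Mir98 differed from the midpoint by -1.17 ± 0.19 (limma, adjusted p = 0.0044), from Hopx-high by -1.57 ± 0.22 (adjusted p = 5.7e-04) and from naive cells by -0.77 ± 0.22 (adjusted p = 0.029). Mirlet7i stood at 3316, 3942 and 2794 in Hopx-low, at 7376, 7166 and 5727 in Hopx-high and at 5158, 8030.1 and 5176 in naive libraries. Here too all 3 Hopx-low libraries were the lowest of the 9, while Hopx-high and naive libraries overlapped. Mirlet7i differed from the midpoint by -0.93 ± 0.19 (limma, adjusted p = 0.025), from Hopx-high by -1.02 ± 0.22 (adjusted p = 0.011) and from naive cells by -0.85 ± 0.22 (adjusted p = 0.021). Mir98 and Mirlet7i kept the lowest mean in each of 20 alternatives, and passed against both groups in 14 (Mir98) and 16 (Mirlet7i) of them. The adjusted p of Mirlet7i against the midpoint was 0.12 without Hopx-low replicate 1, 0.18 without Hopx-low replicate 3 and 0.058 without Hopx-high replicate 1. In bulk libraries, a lower level in each cell and fewer cells that carry the microRNA cannot be told apart.

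The rest of the let-7 family did not move as one. Against the midpoint 0 of 12 were called higher and 2 lower, at a median of -0.42 beside -0.09 over all features; the gap between these medians was -0.29 with upper-quartile scaling and -0.20 with quantile normalization. Hopx-low cells had the lowest mean for 7 members, but for 3 with upper-quartile scaling and 4 with quantile normalization. Mirlet7g, which had the highest mean level of the family, stood at 18529.9, 19533 and 15202 in Hopx-low, at 18125, 20758 and 14825 in Hopx-high and at 31833, 33293 and 30209.8 in naive libraries. Its Hopx-low and Hopx-high libraries overlapped in full, and both groups lay below naive cells. The mature strands of Mirlet7f-2 and Mir98 lie within 956 bases of chromosome X. Mirlet7f-2 stood at 9556, 10705 and 8131 in Hopx-low, at 10186, 13562 and 9396 in Hopx-high and at 14096, 15996 and 15609 in naive libraries. It fell against naive cells (-0.69 ± 0.21, limma, adjusted p = 0.035) and differed from Hopx-high by -0.21 ± 0.21 (adjusted p = 0.60), so these neighbours had different profiles in Hopx-high cells. Mirlet7b, Mirlet7c-1 and Mirlet7c-2 lay below naive and above Hopx-high cells in their means. Mirlet7b stood at 7718, 7748 and 6481 in Hopx-low, at 3819, 6579 and 4261 in Hopx-high and at 11058, 10707 and 14432 in naive libraries. Its means fell from naive over Hopx-low to Hopx-high, at -0.05 ± 0.20 from the midpoint. Hopx-low and Hopx-high libraries overlapped. By limma, Hopx-low cells passed neither against naive (adjusted p = 0.052) nor against Hopx-high cells (0.098), while Hopx-high passed against naive cells (5.1e-04). Mirlet7e was the 1 member with the highest mean in Hopx-low cells. In total, 5 of the 12 were called lower against naive cells, where 5.88% of all features were, and 2 against Hopx-high cells, where 10.8% were. Summed over the family, the level was 88998 to 109799 in Hopx-low, 95957 to 135340 in Hopx-high and 146635 to 159743 in naive libraries. Hairpins of the family that share a mature sequence (Mirlet7a-1 with Mirlet7a-2, Mirlet7f-1 with Mirlet7f-2, Mirlet7c-1 with Mirlet7c-2) cannot be told apart by short reads and are not separate measurements.

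**Figure D2:**
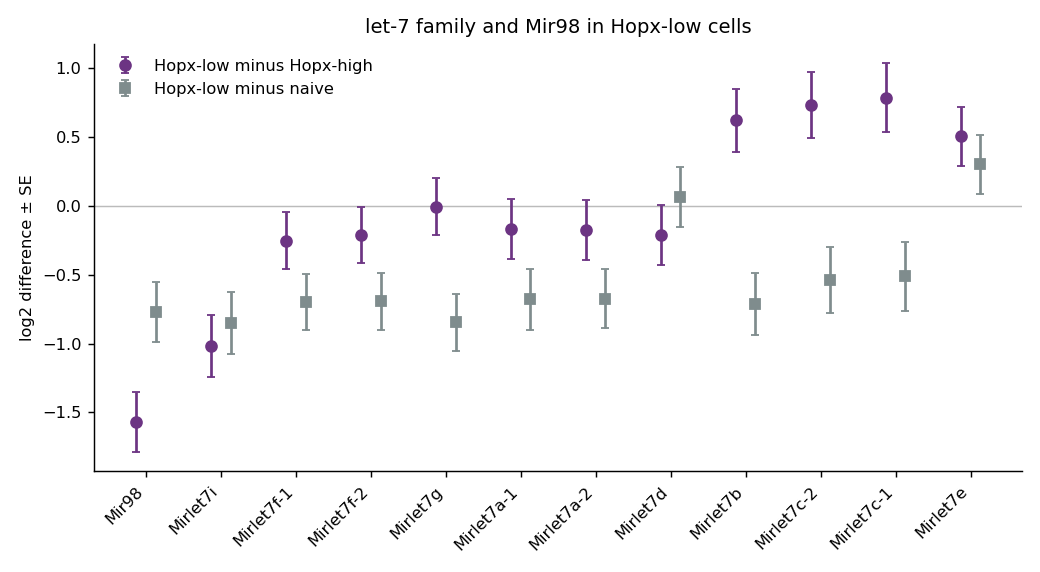
For each of the 12 let-7 family hairpins on the horizontal axis, circles give the Hopx-low minus Hopx-high difference and squares the Hopx-low minus naive difference in log2 units, with bars of 1 standard error from the fit. Mir98 and Mirlet7i lie below 0 on both, Mirlet7e lies above 0 on both, and Mirlet7b, Mirlet7c-1 and Mirlet7c-2 are above 0 against Hopx-high and below 0 against naive cells.

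The miR-29 family, whose best known targets are collagen and other matrix genes and which restrains interferon-gamma output in T cells, gave 2 more of the lower calls. Mir29b-1 (chr6:31063025-31063047, minus strand) and Mir29b-2 (chr1:195037091-195037113, plus strand) encode the same mature strand, so they cannot be told apart and count as 1 observation. Mir29b-2 stood at 530.1, 711 and 412 in Hopx-low, at 769, 656 and 642 in Hopx-high and at 1118, 1471 and 1568 in naive libraries. All 6 libraries of activated cells lay below the naive ones, and the Hopx-low and Hopx-high libraries overlapped. Its difference was -0.85 ± 0.19 from the midpoint (limma, adjusted p = 0.029), -1.35 ± 0.22 from naive cells (adjusted p = 8.2e-04) and -0.35 ± 0.22 from Hopx-high cells (adjusted p = 0.35). Mir29b-1 had the same profile, at 529, 758 and 438 in Hopx-low, 733, 743 and 599 in Hopx-high and 1146, 1477 and 1841 in naive libraries, with -0.84 ± 0.20 from the midpoint (limma, adjusted p = 0.047). Both are thus lower in Hopx-low than in naive cells, with no call between Hopx-low and Hopx-high cells. The mature strands of Mir29a and Mir29b-1 lie within 416 bases. Mir29a was at 2801, 3659.8 and 2491 in Hopx-low, 3259, 2156 and 2752 in Hopx-high and 5061, 7585 and 5814 in naive libraries. It fell against naive cells (-1.04 ± 0.22, limma, adjusted p = 0.0064) and differed from the midpoint by -0.45 ± 0.19 (adjusted p = 0.24). Mir29c, at 27.6 ± 5.89 in Hopx-low, 29.1 ± 4.46 in Hopx-high and 50.0 ± 9.97 in naive cells (SD, n = 3 each), passed none of these tests. The call of Mir29b-2 against the midpoint was lost without any 1 of Hopx-low replicates 1 (adjusted p = 0.14) and 3 (0.30), Hopx-high replicates 1 (0.070) and 2 (0.057) and naive replicate 3 (0.069). For Mir29b-1 the same 5 omissions gave 0.20, 0.33, 0.096, 0.071 and 0.077.

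Mir32, an intronic microRNA with the seed of the miR-25 and miR-92 family, had the same 1-sided profile. Its mature strand lies at chr4:56895272-56895293, minus strand, inside Tmem245. Mir32 stood at 55.3, 86.7 and 64.9 in Hopx-low, at 87.6, 82.0 and 62.9 in Hopx-high and at 215, 228 and 253 in naive libraries. The activated groups overlapped and the naive libraries stood apart above them. It differed from the midpoint by -0.97 ± 0.21 (limma, adjusted p = 0.025), from naive cells by -1.76 ± 0.24 (adjusted p = 1.5e-04) and from Hopx-high cells by -0.18 ± 0.24 (adjusted p = 0.73). With upper-quartile scaling or quantile normalization its mean in Hopx-low cells was no longer the lowest. The call was lost without Hopx-low replicate 1 (0.15), Hopx-low replicate 3 (0.18), Hopx-high replicate 1 (0.070), Hopx-high replicate 2 (0.058) or naive replicate 3 (0.068). The seed AUUGCAC is shared by 6 tested hairpins, which did not move together: Mir32 was called lower, and Mir92-1 and Mir92-2 had their highest mean in Hopx-low cells. Mir92-1, of the miR-17 to 92 cluster on chromosome 14 (chr14:115044476-115044496, plus strand), stood at 6179.6, 6370.2 and 5509.6 in Hopx-low, at 3113, 5449.9 and 3969.6 in Hopx-high and at 3958, 2924 and 4176 in naive libraries. All 3 Hopx-low libraries were above the other 6, yet the difference from the midpoint was 0.64 ± 0.19 with an adjusted p of 0.11 by limma. It rose against naive cells (0.72 ± 0.23, limma, adjusted p = 0.047). The other 5 tested members of the miR-17 to 92 cluster had intermediate means in Hopx-low cells, and 0 of the 6 were called against the midpoint, beside 2.16% of all features.

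Mir143, a microRNA of smooth muscle and fibroblasts, had the largest fall but rests on few reads. It covered 0, 104 and 0 bases in Hopx-low, 136, 136 and 76 in Hopx-high and 226, 240 and 171 in naive libraries. In levels this was 0, 2.87 and 0 in Hopx-low, 6.40, 4.15 and 4.28 in Hopx-high and 11.2, 20.7 and 10.5 in naive libraries, where the level of 3 reads, which a count of 0 allows, was 2.86 in Hopx-low replicate 1 and 2.06 in Hopx-low replicate 3. All Hopx-low libraries were below all others. The difference from the midpoint was -2.55 ± 0.54 (limma, adjusted p = 0.025), from naive cells -3.21 ± 0.63 (adjusted p = 0.0035) and from Hopx-high cells -1.90 ± 0.63 (adjusted p = 0.063). Its size was set by the pseudocount and other settings, with a range from -4.93 to -1.22 over 20 alternatives, and the adjusted p was 0.13 without Hopx-low replicate 1, 0.18 without Hopx-low replicate 3 and 0.070 without Hopx-high replicate 1. Mir143 belongs to a list of 14 epithelial and mesenchymal microRNAs, of which 11 were tested and 1 was called. The summed level of that list was 492 to 660.4 in Hopx-low, 366 to 523 in Hopx-high and 480.2 to 679.7 in naive libraries, so the groups overlapped. Mir145a, which is made from the same primary transcript as Mir143, stood at 7.84, 12.1 and 8.95 in Hopx-low, 9.47, 11.9 and 7.38 in Hopx-high and 30.6, 16.2 and 24.2 in naive libraries and did not pass the test against the midpoint (-0.59 ± 0.36, limma, adjusted p = 0.41). The part of other cell types in the Mir143 result was not tested.

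**Figure D3:**
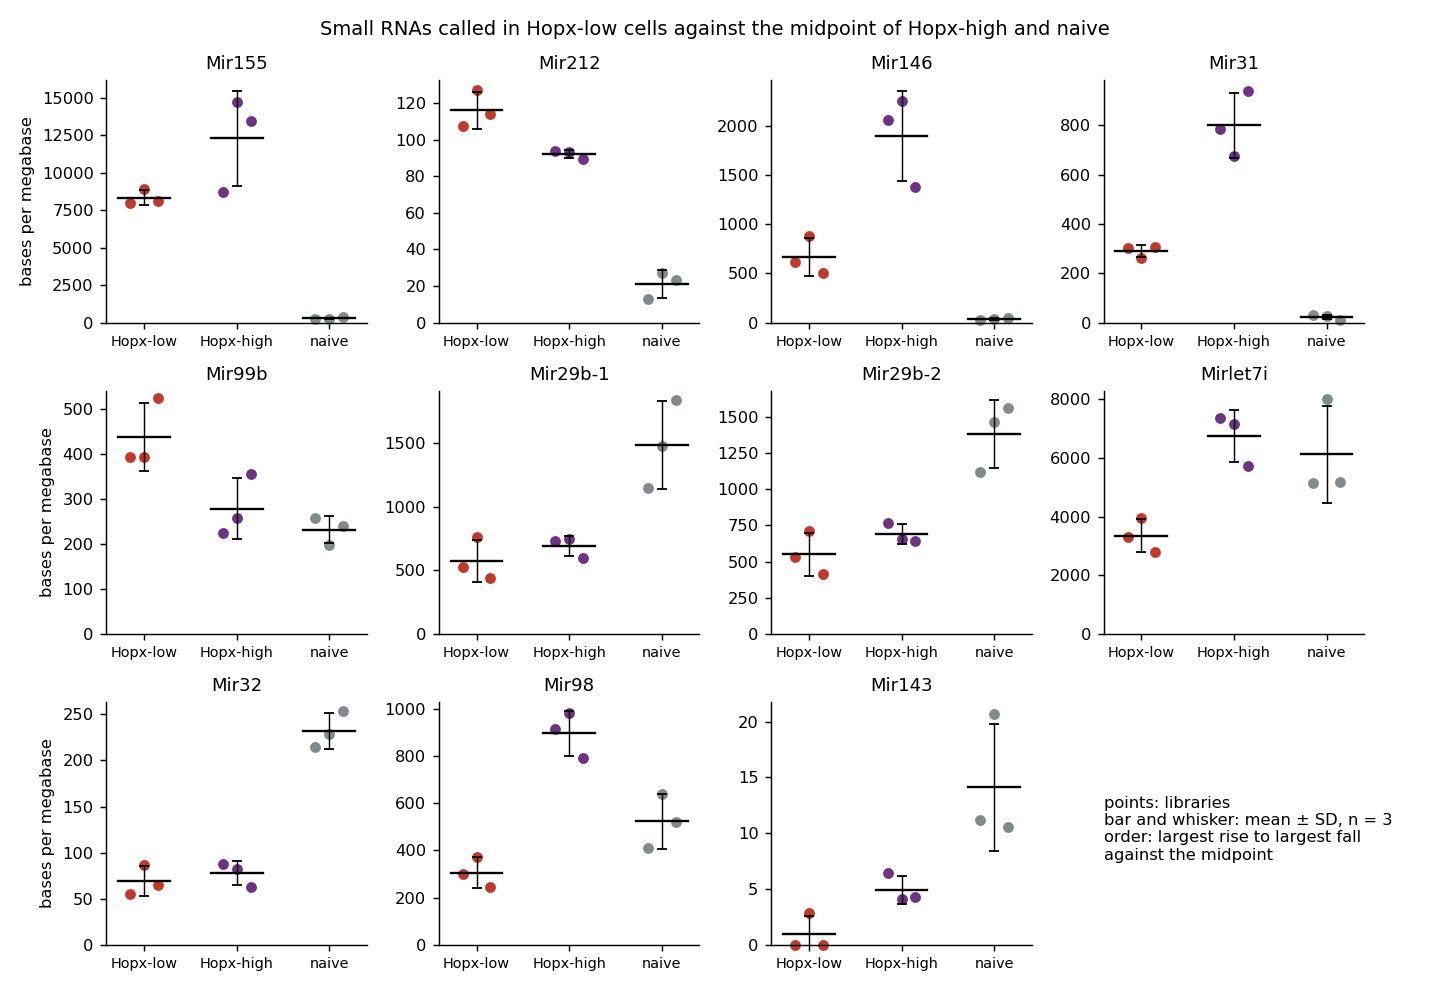
Levels in bases per megabase of the 11 small RNAs called against the midpoint, 1 panel each, with Hopx-low, Hopx-high and naive libraries from left to right; points are libraries, and the line and whisker are the mean and SD of 3. Mirlet7i, Mir98 and Mir143 have all Hopx-low points below the others, Mir212 and Mir99b have all of them above, and the remaining panels show Hopx-low points close to or between those of the other groups.

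On the other side, Mir212 was the clearest higher call with a highest mean. Mir212 and Mir132 share a seed and a primary transcript on chromosome 11, where their mature strands lie within 342 bases. Both are known in neurons as targets of the transcription factor CREB. Mir212 (chr11:75173443-75173464, plus strand) stood at 107, 127 and 114 in Hopx-low, at 93.9, 93.4 and 89.6 in Hopx-high and at 12.7, 27.2 and 23.5 in naive libraries. Hopx-low libraries lay above all others, but by a small margin over Hopx-high cells and a wide one over naive cells. The differences were 1.40 ± 0.25 from the midpoint (limma, adjusted p = 0.0093), 2.47 ± 0.29 from naive cells (adjusted p = 3.4e-05) and 0.33 ± 0.29 from Hopx-high cells (adjusted p = 0.57). Without Hopx-low replicate 3 the adjusted p against the midpoint was 0.075. Mir132 (chr11:75173723-75173744, plus strand) stood at 249, 381 and 377 in Hopx-low, at 176, 264 and 321 in Hopx-high and at 137, 125 and 139.9 in naive libraries. Its Hopx-low and Hopx-high libraries overlapped, and both were above naive ones. Mir132 missed the test against the midpoint (0.86 ± 0.21, limma, adjusted p = 0.055) and passed it in 6 of 20 alternatives, with an adjusted p of 0.041 without naive replicate 2, 0.049 without Hopx-low replicate 1 and 0.030 without Hopx-high replicate 3. It rose against naive cells by 1.29 ± 0.25 (limma, adjusted p = 0.0031) and differed from Hopx-high cells by 0.42 ± 0.25 (adjusted p = 0.32).

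Mir99b, Mirlet7e and Mir125a form a cluster on chromosome 17, with their mature strands within 683 bases. All 3 had their highest mean in Hopx-low cells in each of 20 alternatives. miR-125a is known in T cells as a restraint on effector genes and a support of regulatory cells, and miR-99 family members target components of the mTOR pathway. Mir99b (chr17:17830194-17830215, plus strand) stood at 393, 393 and 523 in Hopx-low, at 223, 256 and 354 in Hopx-high and at 257, 197 and 239 in naive libraries. Each Hopx-low library was above each of the other 6. It rose against the midpoint by 0.79 ± 0.19 (limma, adjusted p = 0.047) and against naive cells by 0.91 ± 0.22 (adjusted p = 0.013), and differed from Hopx-high cells by 0.66 ± 0.22 (adjusted p = 0.065). This was the least firm of the 11 calls: 8 of 20 alternatives kept it. The adjusted p was 0.13, 0.062 and 0.34 without Hopx-low replicates 1, 2 and 3, 0.099 and 0.071 without Hopx-high replicates 1 and 2, and 0.055 and 0.069 without naive replicates 1 and 3. Mir125a (chr17:17830817-17830840, plus strand) stood at 2875, 3346 and 5472 in Hopx-low, at 983, 1812 and 2110.1 in Hopx-high and at 2282, 1584 and 2522 in naive libraries. All Hopx-low libraries were the highest here as well, with the widest spread in that group. Mir125a passed against Hopx-high cells (1.27 ± 0.31, limma, adjusted p = 0.024) and missed against the midpoint (1.06 ± 0.27, adjusted p = 0.077) and naive cells (0.84 ± 0.31, adjusted p = 0.090); without Hopx-high replicate 3 its adjusted p against the midpoint was 0.030. Mirlet7e (chr17:17830366-17830387, plus strand) stood at 753, 888 and 958 in Hopx-low, at 444, 741 and 684 in Hopx-high and at 635, 677 and 798 in naive libraries, a difference of 0.40 ± 0.19 from the midpoint that did not pass (limma, adjusted p = 0.28). Its naive and Hopx-low libraries overlapped. Of the 8 tested members of the miR-125, miR-99/100 and miR-10 families, 1 was called higher and 0 lower against the midpoint, at a median of -0.12.

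**Figure D4:**
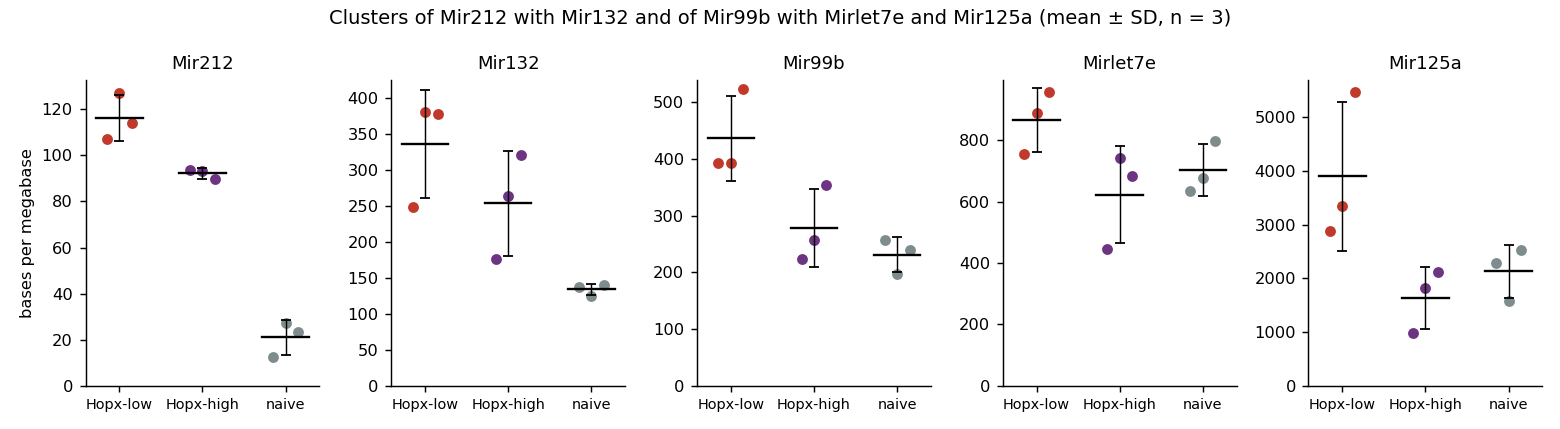
Levels in bases per megabase of Mir212 and Mir132 (chromosome 11) and of Mir99b, Mirlet7e and Mir125a (chromosome 17), with Hopx-low, Hopx-high and naive libraries from left to right in each panel; points are libraries, and the line and whisker are the mean and SD of 3. The Hopx-low mean is the highest in all 5 panels, and no Hopx-low point overlaps the other groups for Mir212, Mir99b and Mir125a.

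Mir155, Mir146 and Mir31 were called above the midpoint with a mean that lay between the other groups. By arithmetic, such a call places Hopx-low cells nearer to Hopx-high than to naive cells on the log2 scale, so that place is not a further result. On the scale of levels, mean Mir146 was 667 in Hopx-low, 1896 in Hopx-high and 35.4 in naive cells. Mean Mir31 was 291, 799 and 22.5 in the same order, and mean Mir155 was 8353, 12300 and 276. miR-155, made from the Bic transcript and required for normal T-cell responses, lies at chr16:84714143-84714165, plus strand. Mir155 stood at 7979, 8946 and 8133 in Hopx-low, at 8727, 14729.5 and 13442 in Hopx-high and at 257, 231 and 339 in naive libraries. The Hopx-low range reached into the Hopx-high range, and both were far above naive cells. The differences were 2.20 ± 0.19 from the midpoint (limma, adjusted p = 7.2e-06), 4.93 ± 0.22 from naive cells (adjusted p = 9.5e-10) and -0.52 ± 0.22 from Hopx-high cells (adjusted p = 0.15). It was the call kept in all 20 alternatives. Mir146, the file's name for miR-146a (chr11:43374435-43374456, minus strand), which damps NF-kappaB signalling, stood at 616, 876 and 509 in Hopx-low, at 2057, 2251 and 1379 in Hopx-high and at 29.8, 32.2 and 44.2 in naive libraries. Here the 3 groups did not overlap. Mir146 differed by 1.34 ± 0.22 from the midpoint (limma, adjusted p = 0.0044), 4.18 ± 0.25 from naive cells (adjusted p = 2.7e-08) and -1.51 ± 0.25 from Hopx-high cells (adjusted p = 0.0019). Mir31 (chr4:88910614-88910635, minus strand), which is known to restrain Foxp3 in human T cells, stood at 303, 263 and 307 in Hopx-low, at 783, 675 and 938 in Hopx-high and at 29.0, 26.4 and 11.99 in naive libraries, again without overlap. Its differences were 1.14 ± 0.25 from the midpoint (limma, adjusted p = 0.025), 3.73 ± 0.29 from naive cells (adjusted p = 4.4e-07) and -1.44 ± 0.29 from Hopx-high cells (adjusted p = 0.0066). Without Hopx-low replicates 1, 2 or 3 its adjusted p against the midpoint was 0.13, 0.057 and 0.18, and without Hopx-high replicates 1 or 2 it was 0.070 and 0.058.

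The place of Hopx-low cells along the step from naive to Hopx-high cells was measured for the 158 small RNAs (31%) that limma called between those 2 groups, as the Hopx-low minus naive difference in percent of the Hopx-high minus naive difference. This percentage reuses the contrast that selected the 158 and is given as a description. The median was 56.1%, with quartiles of 30.3% and 75.5%. In 85 cases the value lay from 25% to 75%, in 13 from 0% to 25%, in 27 from 75% to 100%, in 15 above 100% and in 18 below 0%. The median was 51.0% for the 106 small RNAs (20.8%) that were higher in Hopx-high than in naive cells and 68.6% for the 52 (10.2%) that were lower. Both medians come from the main scaling alone. Other scalings shift Hopx-low levels against the other groups, so the gap between these medians may depend on scaling, which was not tested. Mir155 stood at 90.4%, Mir146 at 73.5% and Mir31 at 72.1%, where a place beyond the middle follows from their calls above the midpoint. Mir21a, the oncogenic microRNA that is induced on T-cell activation, stood at 57.6%, with levels of 37684, 28702 and 24003 in Hopx-low, 163882, 104207 and 85889.9 in Hopx-high and 4506, 6407 and 3772 in naive libraries, a graded order without overlap. Mir221, whose best known target is the cell cycle inhibitor p27, stood at 26.1%, with 82.9, 87.7 and 93.7 in Hopx-low, 436, 326 and 345 in Hopx-high and 34.7, 74.6 and 57.1 in naive libraries, so most of its rise separated Hopx-high from Hopx-low cells. At the ends of the range, Mir98 stood at -97.6%, since it rose in Hopx-high cells and fell in Hopx-low cells against naive ones, and Mir132 at 148%.

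**Figure D5:**
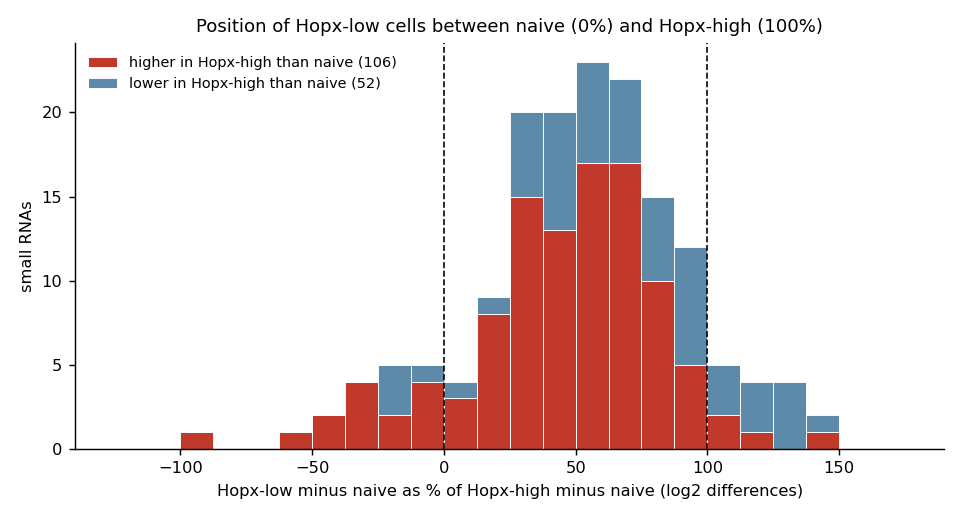
Histogram of 158 small RNAs called between Hopx-high and naive cells; the horizontal axis is the Hopx-low minus naive difference in percent of the Hopx-high minus naive difference (log2 differences), where 0 is the naive and 100 the Hopx-high mean, and the vertical axis is the number of small RNAs, in red for those higher and in blue for those lower in Hopx-high cells. The bulk lies between the dashed lines at 0% and 100%, with 18 values below 0% and 15 above 100%.

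Other microRNAs stood out by their mean or their p without passing the test. Mir150, a microRNA of mature resting lymphocytes that targets Myb, stood at 141107, 117772 and 127855 in Hopx-low, at 22169, 41274 and 42409.9 in Hopx-high and at 138295, 66815 and 149868 in naive libraries. Hopx-low libraries overlapped naive ones and lay above all Hopx-high ones (1.92 ± 0.33 against Hopx-high, limma, adjusted p = 0.0021; 0.21 ± 0.33 against naive, adjusted p = 0.76; 1.07 ± 0.28 against the midpoint, adjusted p = 0.077). Without naive replicate 2, Hopx-low cells no longer had the highest mean of Mir150, and the adjusted p against the midpoint was 0.022. Mir342, encoded in an intron of Evl, stood at 75197, 72892 and 86849 in Hopx-low, at 32167, 47664 and 51521 in Hopx-high and at 57228, 21917 and 55811 in naive libraries. All Hopx-low libraries were above the rest, at 0.89 ± 0.29 from the midpoint (limma, adjusted p = 0.13). Mir15a, of the miR-15/16 family that restrains cyclins and Bcl2, stood at 1528, 2267 and 1395 in Hopx-low, at 2972, 2401 and 2414 in Hopx-high and at 2067, 3599 and 2432 in naive libraries, a lower mean with an overlap between Hopx-low and naive cells (-0.62 ± 0.21, limma, adjusted p = 0.13). Mir326, known in mouse T cells as a promoter of T helper 17 differentiation, stood at 12.3, 9.64 and 10.6 in Hopx-low, at 18.6, 18.3 and 25.5 in Hopx-high and at 24.5, 27.0 and 20.3 in naive libraries. Its Hopx-low libraries were the lowest of the 9, at -0.97 ± 0.30 from the midpoint (limma, adjusted p = 0.12). Mir27b, at 1106, 1531 and 1243 in Hopx-low, 2834, 1994 and 2046 in Hopx-high and 1249.7, 1884 and 1402 in naive libraries, fell against Hopx-high cells (-0.82 ± 0.22, limma, adjusted p = 0.025) and overlapped naive cells. Mir101a, which targets the methyltransferase Ezh2, stood at 425, 673 and 413 in Hopx-low, at 630.2, 551 and 474 in Hopx-high and at 1053, 1579.6 and 1053 in naive libraries. Like Mir32 it was lower than in naive cells (-1.29 ± 0.23, limma, adjusted p = 0.0019) and overlapped Hopx-high cells, and it missed the test against the midpoint (-0.73 ± 0.20, adjusted p = 0.077), which it passed without Hopx-low replicate 2 (adjusted p = 0.027). Mir301 stood at 525, 329 and 355 in Hopx-low, at 722, 882 and 716 in Hopx-high and at 78.1, 40.9 and 78.4 in naive libraries, an order without overlap, at 0.83 ± 0.23 from the midpoint (limma, adjusted p = 0.077).

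The cluster of repeated hairpins in an intron of Sfmbt2 on chromosome 2, a rodent-specific group that includes the miR-297, miR-466, miR-467 and miR-669 families, leaned downward without a call. Of 82 measured hairpins, 63 were tested, and 0 were called against the midpoint, beside 2.16% of all features. Hopx-low cells had the lowest mean for 34 (53.97%, beside 34.1% of all features), and 21 were lower at an unadjusted p below 0.05 (33.3%, beside 12.2% of all features). Their median difference was -0.28, beside -0.09 over all features, and the gap between the medians was -0.15 with upper-quartile scaling and -0.08 with quantile normalization. Mir669e stood at 62.2, 79.4 and 45.1 in Hopx-low, at 172, 109.6 and 132 in Hopx-high and at 79.1, 182 and 104 in naive libraries, and its difference of -1.03 ± 0.28 had the lowest p of the group (limma, adjusted p = 0.077; 0.039 without naive replicate 1). Mir669a-6, the most abundant, had 4256, 7626 and 6416 in Hopx-low, 3775, 4066 and 4566 in Hopx-high and 12214, 10613 and 14485 in naive libraries, so it was called lower than in naive cells (-1.06 ± 0.23, limma, adjusted p = 0.0064) and not against the midpoint. Without Hopx-low replicate 2, which had the highest summed level of its group, 4 members were called lower. Without Hopx-low replicate 1, 0 were called, and the gap between the medians was -0.05, beside -0.19 in the main fit. Hopx-low cells then had the lowest mean for 27 members. That number was 26 with upper-quartile scaling and 24 with quantile normalization of all libraries. The summed level was 14391 to 21885 in Hopx-low, 15254 to 15851 in Hopx-high and 23787 to 27864 in naive libraries. These hairpins repeat nearly the same sequence, so how reads were divided among them is uncertain and the 63 are not separate observations.

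Other families gave no call against the midpoint: the miR-106a and miR-106b clusters (9 tested), the miR-23, miR-27 and miR-24 clusters (6), the miR-181 (6), miR-30 (6), miR-15/16 (8), miR-200 (5) and miR-34 and miR-449 (3) families, miR-26 with miR-101 (5), the miR-183 cluster (3), miR-221 with miR-222 (2) and the Dlk1-Dio3 cluster (2 tested of 54). With 2.16% of all features called, 0 calls in families of these sizes is near the background. Mir223, a marker of myeloid cells, stood at 153 to 212 in Hopx-low, 362 to 899 in Hopx-high and 78.5 to 241 in naive libraries. The erythroid list (3 tested of 4) summed to 17.1 to 21.3 in Hopx-low, 24.3 to 75.6 in Hopx-high and 22.2 to 28.8 in naive libraries, so the Hopx-low sums lay below all others. Of its tested members, 2 had the lowest mean in Hopx-low cells and 1 the highest. The erythroid gene Hba-a1 in total RNA overlapped between all groups, at 11.1 to 21.3 in Hopx-low, 15.4 to 52.4 in Hopx-high and 11.3 to 38.3 in naive libraries. The liver marker Mir122 did not exceed 5.19. In total RNA, 3 B cell genes summed to 5.29 to 6.88 in Hopx-low, 21.9 to 35.8 in Hopx-high and 3.62 to 22.1 in naive libraries. The 3 myeloid genes summed to 8.10 to 19.3 in Hopx-low, 21.1 to 56.9 in Hopx-high and 8.30 to 18.9 in naive libraries, and 2 CD8 genes to 52.6 to 84.0 in Hopx-low, 39.3 to 45.2 in Hopx-high and 126 to 149 in naive libraries. The 3 CD4 T cell genes in the table summed to 1122 to 1769 in Hopx-low, 1446 to 1731 in Hopx-high and 1739 to 1828 in naive libraries. The part of these other cells in the small RNA results was not tested.

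In total RNA, no tested transcript that hosts one of these microRNAs passed the test, and 3 of the 11 called microRNAs had a tested host. Against the midpoint limma called 93 of 11320 genes there (0.822%), and all 93 were higher. Of 29 annotated hosts or overlapping genes of the named small RNAs, 18 were tested and 0 were called, with differences from -0.94 to 0.54 and a lowest adjusted p of 0.64; 0 had an unadjusted p below 0.05. At that share of genes called, 0 of 18 is near the background. Huwe1, the ubiquitin ligase gene around Mir98, stood at 190.4 ± 25.9 in Hopx-low, 152 ± 82.8 in Hopx-high and 287 ± 93.7 in naive cells (SD, n = 3 each), a difference of -0.05 ± 0.26 from the midpoint. Tmem245, around Mir32, stood at 33.2 ± 13.4 in Hopx-low, 26.3 ± 5.42 in Hopx-high and 46.5 ± 7.43 in naive cells, at -0.15 ± 0.27 from the midpoint. Evl, around Mir342, stood at 853 ± 49.7 in Hopx-low, 835 ± 93.9 in Hopx-high and 757 ± 67.3 in naive cells, at 0.11 ± 0.13. Of 14 listed genes of microRNA processing, 8 were tested and 0 were called against the midpoint, beside 0.822% of all genes tested. Ago1, Ago2, Ago3 and Ago4 were not found under these names, so no Argonaute gene was examined. Lin28a and Lin28b, which block let-7 maturation, were at 0 bases in all 9 total RNA libraries. Whether the deposited host values cover exons alone is not given in the sources used here. Total RNA libraries held 105 to 329 megabases.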

How the data were processed

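For 9 small RNA and 9 total RNA libraries of CD4+ T cells, the authors deposited a signal value for each feature, in a table for each kind of library; per the submitters' processing notes, mm10 and bedtools were used. For the aligner, the annotation and reads that match several places, the steps were not given in the sources used here. Each deposited signal, divided by the smallest value of its column, gave a whole number in 100% of cases (tolerance 1e-06). Less 1, this number was read as the bases covering the feature, a reading that the sources used here do not state. Bases were divided by the library's total in megabases. No column was without a sample.

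Tests were limited to features whose level reached 1 in 3 or more libraries (510 of 2220 small RNA features, of which 1397 were at 0 throughout, and 11320 of 23219 in total RNA). Limma 3.58.1 in R 4.3.3 (trend and robust settings) was fitted to log2(level + 1) of all 9 libraries of an assay, with contrasts of Hopx-low against the midpoint, against Hopx-high and against naive cells, and Benjamini-Hochberg adjustment over all features tested. The stricter test took, per feature, the larger p of Hopx-low against Hopx-high and against naive cells where both had the same sign, and 1 otherwise. The fit and both tests were tried on simulated log2 levels with known changes, and the steps before the fit were not part of that trial.

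Small RNAs were named if called, if among the 10 smallest p in either direction of either test, as the member of each family list with the smallest p or the highest level, or by share of bases; Mirlet7b, Mirlet7e, Mirlet7f-2, Mir145a and Mir21a were added after their values were seen. The members, lists and rules were chosen with earlier results of these data known. Of 510 tested features 344 matched a RefSeq hairpin and 455 the gene table of GRCm38.p6, the mm10 build. Same-numbered libraries did not deviate together, so no pairing was used. Alternatives were other scalings, filters, pseudocounts, fits and totals, and each library left out. Figures used matplotlib 3.10.9, and tables numpy 2.4.6, pandas 2.3.3 and Python 3.11.15.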

Additional observations from a re-analysis of the deposited data

How the results depend on the processing

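Over 20 alternatives, the 62 named small RNAs gave 1233 differences from the midpoint, of which 1133 kept direction and side of the threshold, 54 lost a call (10 small RNAs), 19 gained one (9 small RNAs) and 27 turned direction. The 27 belong to 7 small RNAs that were not called, and 0 of them passed the threshold. With upper-quartile scaling the turned differences were 0.014 for Mir122, 0.041 for Mir1b and 0.13 for Mir30d, and with quantile normalization 0.078 for Mir122, 0.054 for Mir126a and -0.18 for Mir142. On the deposited scale they were 0.21 for Mir122 and 0.57 for Mir1b, and with a pseudocount of 0.1 they were 0.29 for Mir122 and 0.58 for Mir1b. Totals over microRNAs alone gave -0.019 for Mir142, and totals without Mir3535, Mir5121 and Snord43 gave -0.10 for Mir142 and -0.060 for Mir181a-1. Leaving out 1 library gave -0.43 to 0.23 for Mir122, -0.046 to 0.34 for Mir128-1, -0.037 to 0.096 for Mir142, -0.014 to 0.13 for Mir181a-1, -0.29 to 0.17 for Mir1b and -0.13 to 0.11 for Mir30d. The number of features called higher against the midpoint was 5, and became 9 with upper-quartile scaling, 8 with quantile normalization, 1 without limma's trend and robust settings, and 3 with totals that leave out Mir3535, Mir5121 and Snord43, an alternative chosen after seeing the data. The number called lower was 6, and became 3 with quantile normalization and 0 without the trend and robust settings, where Mir155 was the 1 call left. Leaving out 1 library gave 2 to 9 higher and 1 to 12 lower calls: 6, 15 and 3 in all without Hopx-low replicates 1, 2 and 3, 4, 7 and 13 without Hopx-high replicates 1, 2 and 3, and 11, 15 and 7 without naive replicates 1, 2 and 3. The stricter test called 0 peaks and 0 troughs in all 20 alternatives. Upper-quartile scaling kept 10 of the 11 calls and quantile normalization 7. Same-numbered libraries showed correlations of deviations from -0.33 to 0.087. With 3 libraries in each group, such values cannot tell whether same-numbered libraries share animals or a batch. With the replicate number as a block limma called 12 features (7 higher and 5 lower), 10 of the 11 among them, and Mir29b-1 was lost at an adjusted p of 0.065. The cause of these changes was not tested. Levels of a few units rest on a few reads, which limits Mir143 and other scarce hairpins.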

Other observations

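Features not named as microRNAs, 58 of the 510 tested, included 0 called against the midpoint by limma, beside 2.16% of all features. At an unadjusted p below 0.05 there were 6 of the 58, all lower in Hopx-low cells. Over all 510 features, 62 (12.2%) were lower and 28 (5.49%) higher at that threshold, so the number of lower ones is near the background. The median difference of the 58 was -0.51 on the log2 scale, beside -0.09 over all features. Snord43, a C/D box small nucleolar RNA, stood at 18855, 9336 and 5228 bases per megabase in Hopx-low, at 45524, 10700.0 and 21800.5 in Hopx-high and at 13034, 85292 and 30879.7 in naive libraries, with a spread within each group as wide as the gaps between them. Mir3535 stood at 74962, 32808 and 37889 in Hopx-low, at 102624, 32264 and 83800.3 in Hopx-high and at 90475, 118854 and 52986 in naive libraries, and also overlapped between all groups. Hopx-low libraries were the deepest as a group, and the part of depth in these lower values was not tested.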
